A study of Mus musculus with 9 samples.

Results

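Hypoxia and hexose transporter genes were examined in mouse cells sorted as microglia, the macrophages that reside in brain tissue, after a transient ischemic attack (TIA). The 7 genes Hif1a, Vegfa, Hilpda, Bnip3, Bnip3l, Slc2a1 and Slc2a5 were chosen by name, and all 7 were among the 757 genes of the deposited table. They were chosen with earlier results of the same 9 samples known, in which Slc2a5 had already been named for its low level at TIA 24h. Their levels and differences are therefore a description, and the adjusted p values given with them lend no independent support.

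The TIA animals had a filament briefly placed to occlude the middle cerebral artery, and were sampled 24 h (TIA 24h) or 3 d (TIA 3d) later. The Sham animals had the same surgery without the filament. Each group held 3 samples from 3 mice per condition, described in the study's legend as males. The labels give no strain or age. The methods describe the study's animals as young adults apart from an aged cohort used for other measurements, and name wild-type C57BL6/J mice without tying them to these samples. No transgene or drug treatment is given for any group. From perfused, dissociated brains kept in a medium with actinomycin D, an inhibitor of transcription, live cells carrying CD45 and CD11b on their surface were sorted. Both surface proteins are also carried by other myeloid cells, so the sort alone does not separate microglia from them. Each sample is the pooled RNA of all sorted cells, in which fewer cells of a type and less RNA per cell cannot be told apart.

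When oxygen is scarce, the HIF-1 alpha protein, encoded by Hif1a, escapes degradation and pairs with ARNT to switch on genes whose promoters or enhancers hold a short core sequence. Among the classical targets are Vegfa, a growth factor for blood vessels, Hilpda, an inhibitor of lipid breakdown at lipid droplets, and Bnip3 and Bnip3l, related outer-membrane proteins that mark mitochondria for removal. Slc2a1 encodes the glucose transporter GLUT1, which is abundant in the endothelium of the blood-brain barrier. Slc2a5 encodes GLUT5, a fructose transporter that within the brain is known as a microglial gene. HIF-1 alpha is regulated mainly through its protein, which transcript counts do not measure.

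The promoters are shown because they give the letters that HIF-1 can recognise, the shared property that brings most of these genes together. RefSeq windows (mouse build GRCm38.p6) of the 250 bases before an annotated start were found for 6 of the 7 genes, with 8 windows in all, since Vegfa and Hilpda had 2 each. Both strands were searched for the HIF core written as ACGTG or as GCGTG. The letters CACGTG count as an ACGTG match on each strand. The core was present in 38.6% of the 32851 windows of all genes (16.57% for ACGTG and 28.16% for GCGTG). A match is a description of the letters and not evidence of binding. In the sequences below, written 5′ to 3′ on the strand of the gene, capitals mark the matches.

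Bnip3, chr7:138909507-138909756, minus strand: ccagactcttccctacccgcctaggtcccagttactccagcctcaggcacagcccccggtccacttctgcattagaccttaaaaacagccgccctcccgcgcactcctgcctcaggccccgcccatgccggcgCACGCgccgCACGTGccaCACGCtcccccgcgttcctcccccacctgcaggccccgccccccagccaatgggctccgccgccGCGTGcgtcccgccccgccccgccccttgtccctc

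Hilpda, second window, chr6:29272376-29272625, plus strand: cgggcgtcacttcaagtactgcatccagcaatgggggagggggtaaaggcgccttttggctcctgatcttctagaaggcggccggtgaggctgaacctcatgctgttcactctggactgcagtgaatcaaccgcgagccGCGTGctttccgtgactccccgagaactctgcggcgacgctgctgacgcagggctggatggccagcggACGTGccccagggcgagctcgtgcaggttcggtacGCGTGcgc

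Slc2a1, chr4:119108495-119108744, plus strand: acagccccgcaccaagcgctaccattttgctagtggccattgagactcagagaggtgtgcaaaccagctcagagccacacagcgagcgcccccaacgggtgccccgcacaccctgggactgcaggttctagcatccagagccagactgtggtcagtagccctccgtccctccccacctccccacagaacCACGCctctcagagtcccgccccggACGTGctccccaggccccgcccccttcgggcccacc

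Slc2a5, chr4:150119094-150119343, plus strand: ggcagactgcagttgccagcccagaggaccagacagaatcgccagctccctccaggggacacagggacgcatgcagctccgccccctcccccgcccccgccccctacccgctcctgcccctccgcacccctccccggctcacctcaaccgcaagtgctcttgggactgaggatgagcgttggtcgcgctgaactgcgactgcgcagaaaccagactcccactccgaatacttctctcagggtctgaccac

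Bnip3 had 2 ACGTG and 3 GCGTG matches, the most of the windows searched for the 7 genes. The Hilpda window shown had 1 ACGTG and 2 GCGTG matches, and its other window had 0. Slc2a1 had 1 of each. The Hif1a window had 3 ACGTG matches, of which a pair came from the strands of the same CACGTG, as did the ACGTG pair of Bnip3. Of the Vegfa windows, the second had 1 of each and the other had 0. In the Slc2a5 window, which belongs to the gene with the widest difference below, there were 0 matches.

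Transcripts were counted with the probes of a neuroinflammation panel on an nCounter instrument, and the deposited values are log2 of counts scaled by the authors to housekeeping probes. In every sample the whole counts behind the values could be recovered. Total counts ran from 6560 to 25582 for the Sham samples, from 7248 to 10929 for TIA 24h and from 29200 to 62883 for TIA 3d. All 3 samples at TIA 3d were thus deeper than every other sample. The median gene had 8 to 22 counts, so that several of the 7 genes were measured with few molecules. No negative control probe was in the table, and the background of a sample was not measured here.

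Hif1a, the regulator, varied widely within each group. Replicates 1 to 3 of Sham had 48.9, 41.5 and 17.7 normalized counts, those of TIA 24h had 63.0, 14.8 and 43.5, and those of TIA 3d had 57.3, 44.4 and 139.8. A single sample, TIA 3d replicate 3, lay far above the others, and the groups overlapped in every comparison. Before scaling, Hif1a had 255 counts in that sample and 8 in TIA 24h replicate 2, the highest and lowest of the 9. On the log2 scale the Sham level was 5.04 ± 0.79 (SD, n = 3 in each group), that of TIA 24h was 5.10 ± 1.09 and that of TIA 3d was 6.15 ± 0.87. The difference between TIA 3d and Sham was 1.10 (SE 0.62, adjusted p = 0.307 in limma), with a 95% interval of -0.23 to 2.44, and it was 0.61 without TIA 3d replicate 3. At TIA 24h against Sham it was 0.06 (interval -1.28 to 1.40, adjusted p = 0.988 in limma).

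Vegfa, the secreted ligand, had its lowest mean level at TIA 3d. The Sham samples had 15.3, 47.0 and 53.0 normalized counts, the TIA 24h samples 45.7, 55.4 and 45.4, and the TIA 3d samples 18.0, 31.6 and 16.4. The values at TIA 3d all lay below those at TIA 24h, while Sham spanned both groups because its replicate 1 was low. The log2 difference of TIA 3d from TIA 24h was -1.21 (SE 0.50, adjusted p = 0.0949 in limma), with an interval of -2.30 to -0.12. Against Sham it was 0.53 at TIA 24h (adjusted p = 0.794) and -0.68 at TIA 3d (adjusted p = 0.436), and without Sham replicate 1 these differences were -0.04 and -1.24. The counts before scaling showed no such order. Sham gave 16, 43 and 27 counts, TIA 24h gave 29, 30 and 24, and TIA 3d gave 32, 37 and 30, which is no lower than TIA 24h.

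Hilpda, the lipid droplet protein, was measured with 3 to 20 counts. The normalized counts of Sham were 8.63, 12 and 9.82, those of TIA 24h 4.73, 24.0 and 17.0, and those of TIA 3d 6.74, 12.8 and 11. TIA 24h held both the lowest and the highest value, and all groups overlapped. The lowest value rests on 3 counts, for which counting error alone gives an exact Poisson 95% interval of 0.619 to 8.77 counts. The differences of 0.31 at TIA 24h and -0.04 at TIA 3d against Sham had intervals of -0.89 to 1.51 and -1.24 to 1.17. Without TIA 24h replicate 1 the former was 1.01, and without TIA 24h replicate 2 it was -0.16.

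The mitophagy genes had the smallest ratios of highest to lowest normalized count of the 7 genes. For Bnip3, Sham had 18.2, 15.3 and 19.6 normalized counts, TIA 24h had 18.9, 16.6 and 18.9, and TIA 3d had 24.7, 17.9 and 20.3. These values overlapped throughout, and the log2 differences were 0.04 (interval -0.76 to 0.84) at TIA 24h and 0.24 (interval -0.56 to 1.04) at TIA 3d against Sham. With 3 samples a group, differences as large as the limits of these intervals remain possible. For Bnip3l, Sham had 28.8, 29.5 and 29.5, TIA 24h had 31.5, 24.0 and 15.1, and TIA 3d had 36.5, 31.6 and 32.9. Its 3 values at TIA 3d lay above all others, by a margin of 31.6 against 31.5 for the nearest sample of TIA 24h. The log2 difference of TIA 3d was 0.20 from Sham (SE 0.40, interval -0.65 to 1.06) and 0.58 from TIA 24h (SE 0.40, interval -0.28 to 1.43), with adjusted p values of 0.79 and 0.289 in limma.

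Slc2a1, the glucose transporter, had 4 to 14 counts in the 9 samples. Normalized, Sham stood at 5.75, 4.37 and 13.7, TIA 24h at 15.8, 12.9 and 7.57, and TIA 3d at 6.18, 8.53 and 7.67. Sham replicate 3, the shallowest sample, was as high as TIA 24h, and the groups overlapped. The log2 difference at TIA 24h against Sham was 0.72 (SE 0.49, interval -0.33 to 1.77, adjusted p = 0.742 in limma), and at TIA 3d it was 0.08 (interval -0.98 to 1.13). The 6 measured markers of endothelium and pericytes, cells that lack the sorted surface proteins and in which Slc2a1 is abundant, summed to 47.9 to 80.5 normalized counts in Sham. For TIA 24h the sum was 81.4 to 101 and for TIA 3d 32.6 to 42.7, and none of them was at 0. The 8 measured neuron markers had sums of 70.0 to 114 in Sham, 109 to 138 for TIA 24h and 52.1 to 72.5 for TIA 3d. The part of either cell type in the Slc2a1 values was not tested.

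Slc2a5, the fructose transporter, had the widest difference between group means of the 7 genes on the log2 scale. Sham had 84.3, 33.9 and 31.4 normalized counts, TIA 24h had 7.88, 14.8 and 11.4, and TIA 3d had 29.8, 63.2 and 15.3. All 3 values at TIA 24h lay below all 6 others, by a narrow margin for TIA 3d replicate 3, and TIA 3d overlapped Sham. On the log2 scale the Sham level was 5.48 ± 0.79 (SD, n = 3 in each group), followed by TIA 3d with 4.94 ± 1.02 and TIA 24h with 3.46 ± 0.46. TIA 24h differed from Sham by -2.03 (SE 0.56, interval -3.24 to -0.81), to 0.245 of the Sham level, but the adjusted p was 0.617 over all genes in limma. TIA 3d differed from TIA 24h by 1.48 (SE 0.56, interval 0.269 to 2.695, adjusted p = 0.0733) and from Sham by -0.55 (interval -1.76 to 0.67, adjusted p = 0.577).

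The counts of Slc2a5 before scaling kept this order for TIA 24h. Sham gave 88, 31 and 16 counts, TIA 24h gave 5, 8 and 6, and TIA 3d gave 53, 74 and 28. Sham replicate 3, with 16 counts, had a lower total (6560) than any TIA 24h sample. The exact Poisson intervals for counting error were 9.15 to 26.0 for that sample and 3.45 to 15.8 for the highest sample of TIA 24h, and thus overlapped.

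**Figure D1:**
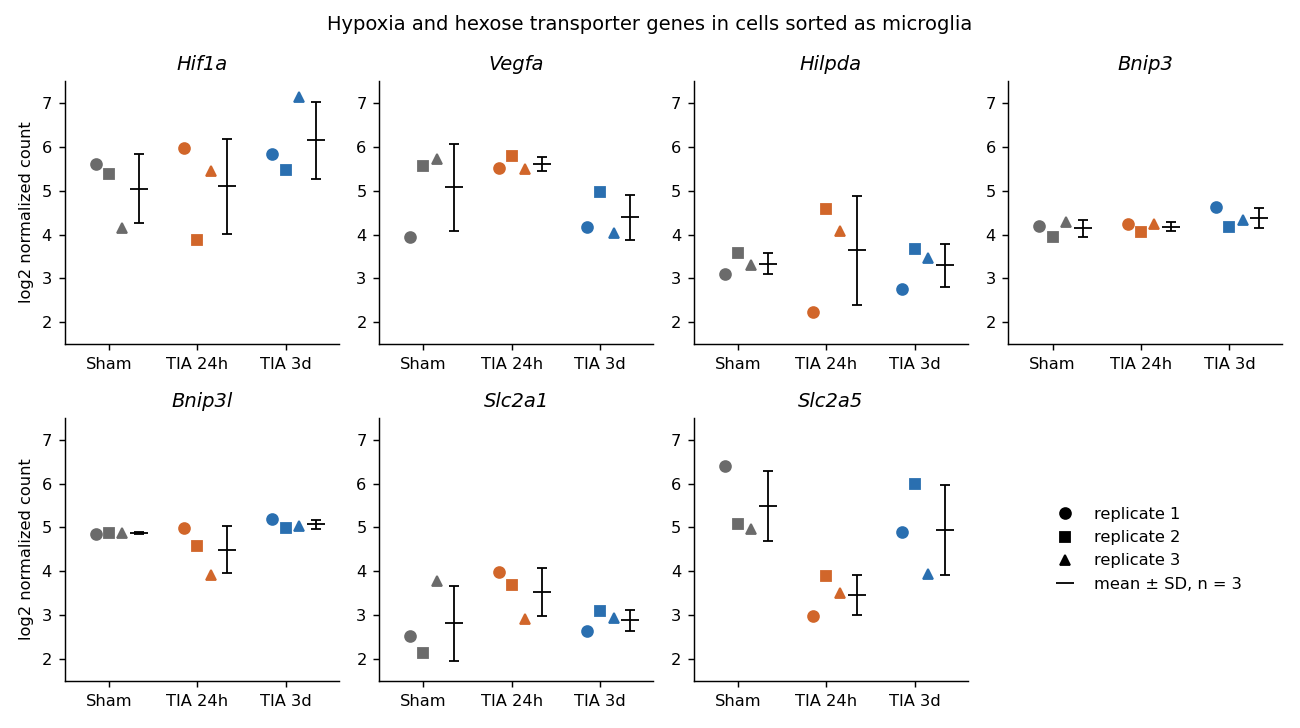
Each panel plots the deposited log2 normalized count (vertical axis) of 1 gene in the 9 samples, by group; symbols mark the replicate number, and the bar gives the mean ± SD (n = 3). Slc2a5 at TIA 24h (2.98 to 3.89) lies below all other Slc2a5 values, Vegfa at TIA 3d lies below Vegfa at TIA 24h, and Bnip3 hardly moves.

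Over all 757 genes in limma, 0 of the 7 members passed an adjusted p of 0.05 at TIA 24h against Sham, where 0% of all genes passed, and 0 at TIA 3d against Sham, where again 0% passed. Between TIA 3d and TIA 24h, 0 members passed beside 19.2% of all genes, and in the F test over the 3 groups 0 members beside 0% of all genes. At an unadjusted p under 0.05 there were 1 member (Slc2a5) and 57 genes in all for TIA 24h against Sham, 0 members and 148 genes for TIA 3d against Sham, 2 members (Vegfa and Slc2a5) and 304 genes between the time points, and 1 member (Slc2a5) and 235 genes in the F test. Voom on the recovered counts also gave 0 members past the adjusted threshold in each of these tests. The groups did not overlap for 1 member at TIA 24h against Sham (Slc2a5), beside 9.78% of all genes, for 1 at TIA 3d against Sham (Bnip3l), beside 24.2%, and for 3 between the time points (Vegfa, Bnip3l and Slc2a5), beside 48.3%. As the members were chosen with these results known, nothing is read from the counts. The median log2 difference of the members was 0.06, 0.08 and 0.20 in the 3 comparisons in that order, and that of all genes was 0.15, -0.01 and -0.25. The comparisons share samples, so that their values are not independent of each other.

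**Figure D2:**
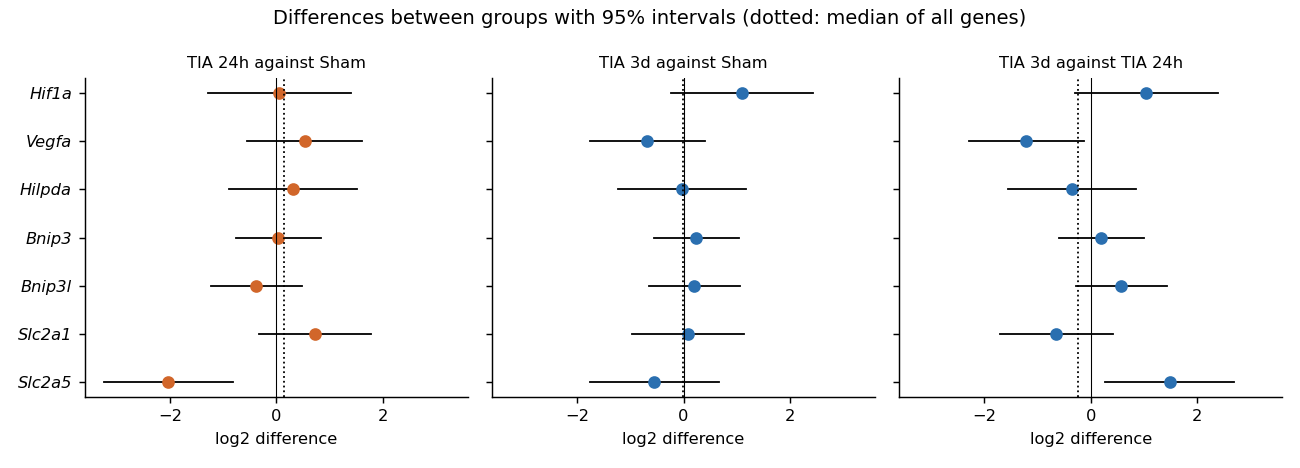
Log2 differences (horizontal axis) of the 7 genes in the 3 comparisons, with 95% intervals from the limma fit; the dotted line is the median of all 757 genes. Intervals exclude 0 for Slc2a5 at TIA 24h against Sham (-3.24 to -0.81) and for Vegfa and Slc2a5 between the time points, and none of these passed after adjustment over all genes.

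The members related differently to the total count of the samples. While the totals spanned 9.59-fold, the counts of Vegfa spanned 2.69-fold and those of Slc2a1 3.5-fold, and those of Hif1a spanned 31.9-fold. The scaling factors of the samples spanned only 3.58-fold. Abundant genes weigh most in a total, so that it is not a measure of depth alone. The 7 measured microglia markers gave 6417 counts in TIA 3d replicate 1 and 99 in TIA 24h replicate 3. The level of a gene is its count times the scaling factor of the sample, which was 1.96 at the lowest total and 0.548 at the highest. A gene with nearly flat counts therefore falls with the total by construction. The permutation allows neither for this nor for the groups, so its p values are a description only. Over the 9 samples the log2 level of Vegfa fell with the log2 total count (Pearson r = -0.889, exact permutation p = 0.00292, adjusted p = 0.0204 over 7 relations; Spearman rho = -0.75, exact permutation p = 0.0255, adjusted p = 0.086). When TIA 3d replicates 1 and 3, whose totals lay farthest from the median, were left out, r was -0.781 (exact permutation p = 0.022, adjusted p = 0.154), and over the 6 Sham and TIA 24h samples alone it was -0.85 (exact permutation p = 0.0403, adjusted p = 0.282). Hif1a rose with the total (r = 0.749, exact permutation p = 0.0161, adjusted p = 0.0564, rho = 0.717, exact permutation p = 0.0369, adjusted p = 0.086), but r was 0.556 without the same pair of samples (exact permutation p = 0.188). For Bnip3l r was 0.633 (exact permutation p = 0.0419, adjusted p = 0.0978) and rho 0.783 (exact permutation p = 0.0172, adjusted p = 0.086), and r was 0.508 without the same pair (exact permutation p = 0.242).

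For the remaining 4 genes r over the 9 samples lay between -0.509 (Slc2a1) and 0.475 (Bnip3), with adjusted p values of 0.28 to 0.398 by the exact permutation test. The value for Bnip3 rested on TIA 3d replicates 1 and 3, since r was -0.248 without them and -0.327 over the 6 Sham and TIA 24h samples. For Slc2a5 r was 0.349 over 9 samples, 0.742 without that pair (exact permutation p = 0.0706, adjusted p = 0.247) and 0.662 over the 6 Sham and TIA 24h samples (exact permutation p = 0.16, adjusted p = 0.391). Depth and time point cannot be told apart at TIA 3d.

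**Figure D3:**
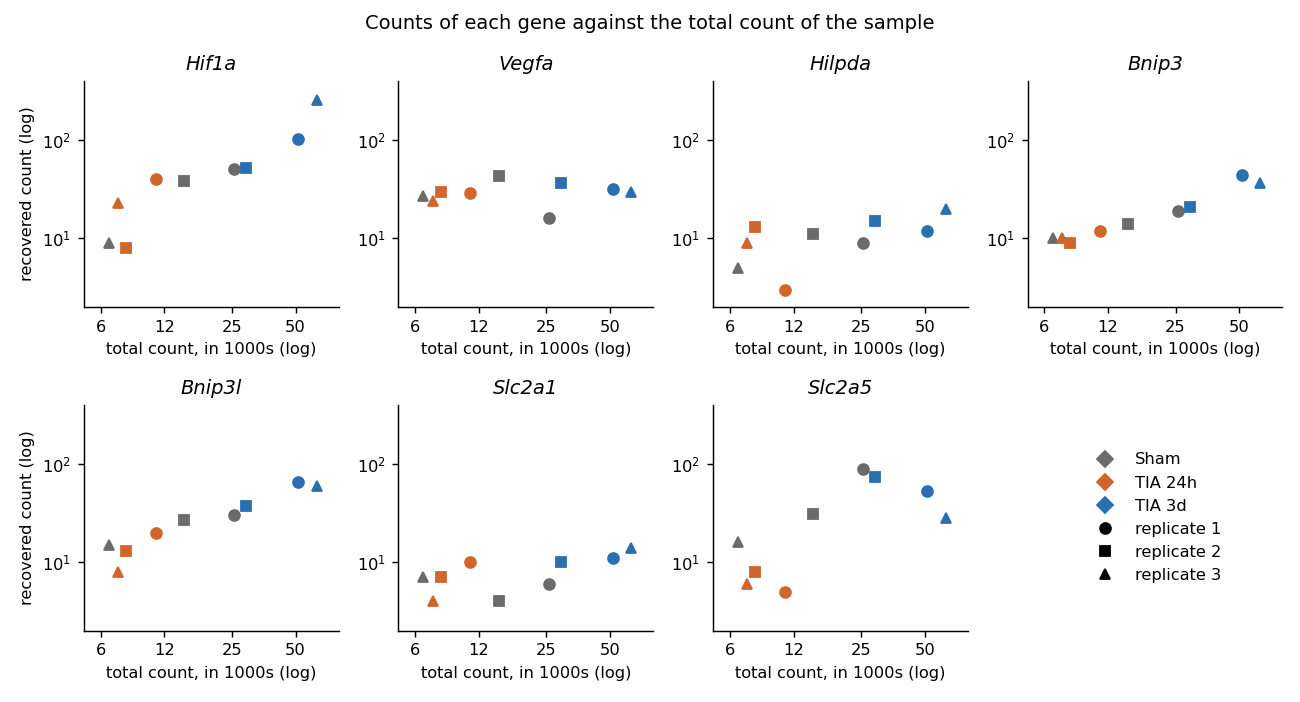
Recovered counts of each gene (vertical, log axis) against the total count of the sample (horizontal, log axis); colours give the group and symbols the replicate. Vegfa stays between 16 and 43 counts over the whole range of totals, Hif1a climbs from 8 to 255, and the TIA 24h samples of Slc2a5 (5 to 8 counts) lie below Sham replicate 3 (16 counts) at similar depth.

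Several differences between the time points had another sign under other processing. With the log2 total as a covariate, the difference between TIA 3d and TIA 24h changed from 1.04 to -1.28 for Hif1a and from -1.21 to 0.74 for Vegfa, in a fit where the covariate and the time point are nearly the same. When counts were instead scaled to the sample total, the median of all genes moved to -1.19 for this comparison, Vegfa was at -2.16 (adjusted p = 0.0207 in limma) and Slc2a1 at -1.59 (adjusted p = 0.0405), and Bnip3 (-0.75) and Bnip3l (-0.37) changed sign with the shift of all genes. This scaling moves every gene of a comparison by the same amount, so that differences relative to the median of all genes stay as they were by construction. Slc2a5 had the same sign in each of the 18 alternatives to the fit of the deposited values, at -2.47 to -1.39 for TIA 24h against Sham (adjusted p = 0.076 to 0.915) and 0.53 to 1.98 between the time points (adjusted p = 0.0397 to 0.947). Its difference between TIA 3d and Sham ran from -1.30 to -0.05, the latter without TIA 3d replicate 3, and that between the time points was 0.96 without TIA 3d replicate 2.

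The markers of microglia moved with Slc2a5 in part. The 7 measured markers, of 10 listed, summed to 3926, 1216 and 245 normalized counts in Sham. TIA 24h had sums of 561, 358 and 187, TIA 3d had sums of 3604, 3345 and 2999, and none of the markers was at 0. Sham replicate 3, although labelled as microglia, was thus as low as TIA 24h. All 7 markers were lower at TIA 24h than in Sham, with differences of -2.01 to -1.0008, and 0 of them passed in limma. Between the time points 7 of 7 passed, higher at TIA 3d by 2.84 to 3.95. Over the same samples the 9 measured oligodendrocyte markers summed to 122 to 930 in Sham, while the sums were 925, 338 and 704 for TIA 24h and 101 to 167 for TIA 3d. The part of either cell type in the Slc2a5 values was not tested.

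Slc2a5 was also set against the microglia markers within each sample. The log2 of Slc2a5 minus the log2 of the marker sum was -5.54, -5.17 and -2.97 for Sham, -6.15, -4.60 and -4.04 for TIA 24h, and -6.92, -5.73 and -7.61 for TIA 3d. On this scale TIA 24h overlapped Sham, with a difference of -0.38, and the difference between the time points turned to -1.82. All 3 values at TIA 3d lay below all 3 of Sham, narrowly (-5.73 against -5.54), with a difference of -2.19. The share of all genes that do so on this scale was not computed. The shift was shared, as all 7 genes were negative between the time points on this scale, from -1.82 for Slc2a5 to -4.51 for Vegfa, with Hif1a (-2.26), Bnip3 (-3.10) and Bnip3l (-2.73) also turning. At TIA 3d against Sham all 7 genes were negative as well, from -0.55 for Hif1a to -2.33 for Vegfa. These ratios were chosen after the data had been seen and were not tested.

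**Figure D4:**
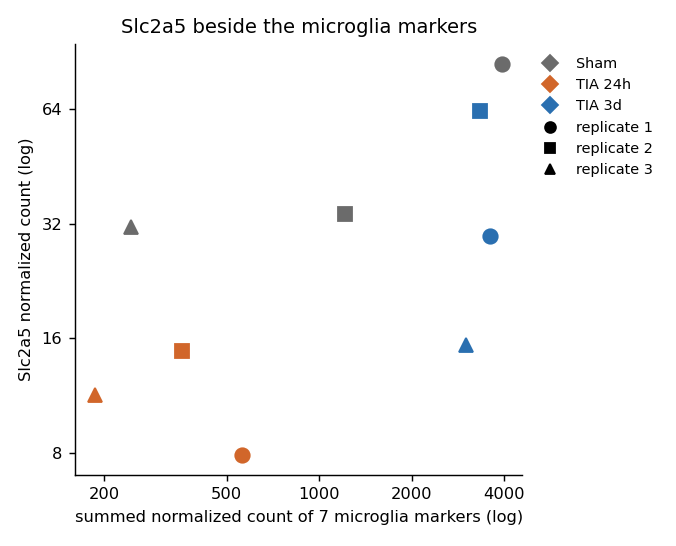
Normalized count of Slc2a5 (vertical, log axis) against the summed normalized count of the 7 measured microglia markers (horizontal, log axis) in the 9 samples. Sham replicate 3 has a marker sum of 245, near those of TIA 24h (187 to 561), but a higher Slc2a5 level (31.4), and the TIA 3d samples share high marker sums (2999 to 3604) while Slc2a5 spreads from 15.3 to 63.2.

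Other genes of the pathway were read from lists of which 44 genes were measured. Over these, 0 passed against Sham at either time point in limma (with an unadjusted p under 0.05 for 2 at TIA 24h and 6 at TIA 3d) or in voom (2 and 2), and between the time points 2 were higher and 2 lower at TIA 3d, beside the 19.2% of all genes. Of the HIF regulators 9 of 31 listed were measured and 0 passed. Between the time points their median was 0.70, and Pik3cb (1.20, adjusted p = 0.0919 in limma) and Pik3ca (1.03, adjusted p = 0.18), which encode catalytic subunits of PI3-kinase, were among those with the smallest p values. Of the further HIF targets 3 of 44 were measured and 0 passed, among them Ldha, which makes lactate, and Hmox1, which degrades heme. At TIA 3d against Sham, Ldha stood at 1.08 (adjusted p = 0.259) and Hmox1 at 1.17 (adjusted p = 0.238) in limma, and at TIA 24h they stood at 0.20 and 0.88.

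In the VEGF and angiogenesis list, 5 of 16 genes were measured and 2 passed between the time points. Flt1, a VEGF receptor of endothelium, was lower at TIA 3d, with a difference of -1.77 (SE 0.46, adjusted p = 0.0304 in limma), on 5 to 12 counts in any sample. Tgfb1, a cytokine that maintains microglia, was higher by 2.48 (SE 0.66, adjusted p = 0.0304). Among 7 other solute carriers, Slco2b1, an organic anion transporter, was higher by 2.94 (SE 0.76, adjusted p = 0.0304). Of the list of mitophagy and BCL2 genes, to which Bnip3 and Bnip3l belong by function, 19 of 30 were measured and 0 passed, with a median of -0.01. Atg5 (0.76), Becn1 (0.62) and Sqstm1 (0.55), which act in forming autophagosomes and delivering cargo to them, had its smallest p values (adjusted p = 0.179 to 0.341 in limma). Of the lipid droplet genes only Fabp5, a fatty acid binding protein, was measured, at -0.17 between the time points. Leaving out TIA 24h replicate 2, TIA 24h replicate 3, TIA 3d replicate 1 or TIA 3d replicate 3 took the count of related genes that passed from 4 to 0, and leaving out TIA 24h replicate 1 took it to 2.

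The genes whose log2 values over the 9 samples were most like those of each member were also listed. For Slc2a5 they included Map2k1 (r = 0.869) and Setdb1 (0.794). For Hif1a they were Rps2 (0.947), Dicer1 (0.946) and Cd14 (0.939), and for Vegfa Kdm3b (0.955), Reln (0.954) and Jag1 (0.951). Bnip3l was most like Pik3r2 (0.923), Bnip3 most like C5ar1 (0.869), Hilpda most like Amigo2 (0.859) and Slc2a1 most like Cd163 (0.923). All these genes share samples, depth and scaling with the member, and they were picked as the highest of all genes. Among the members themselves, r ran from -0.687 for Hif1a with Vegfa to 0.507 for Vegfa with Slc2a1, and the paralogs Bnip3 and Bnip3l had an r of 0.307.

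**Figure D5:**
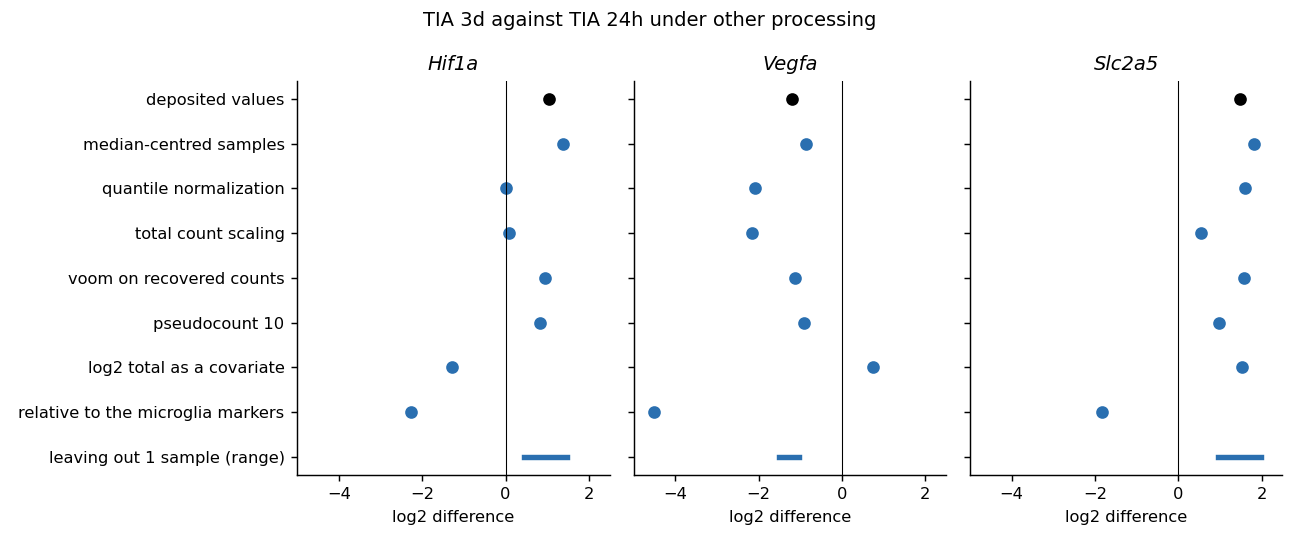
Log2 difference of TIA 3d from TIA 24h (horizontal axis) for Hif1a, Vegfa and Slc2a5 with the deposited values (black) and under other processing (blue); the bar gives the range when 1 sample is left out. Slc2a5 and Hif1a fall below 0 relative to the microglia markers (-1.82 and -2.26), and Hif1a and Vegfa cross 0 with the total as a covariate (-1.28 and 0.74).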

How the data were processed

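RNA of cells sorted as microglia on CD45 and CD11b from 9 samples (3 Sham, 3 TIA 24h, 3 TIA 3d, grouped by title) was hybridised to a mouse neuroinflammation code set and counted on an nCounter SPRINT instrument. The deposited values are log2 counts, which the authors had scaled in ROSALIND to the geometric mean of housekeeping probes picked by geNorm. The methods also state an exclusion of genes below the negative controls, which could not be checked in the table.

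2 to the power of each value was a whole multiple of 1 step per sample (within 0.01 for 100% of values), which gave the recovered counts. Log2 values of all 757 genes and 9 samples were fitted with limma 3.58.1 in R 4.3.3 (a mean per group, no covariate, eBayes with 7.23 prior degrees of freedom, two-sided contrasts, Benjamini-Hochberg over 757 genes, threshold 0.05). The fit was tested on simulated data. Intervals of differences are 95% moderated intervals, and those of counts are exact Poisson intervals that cover counting error only. P values in limma set a difference between groups against the spread between samples within the groups, moderated over all genes. Correlations with the total were tested by exact two-sided permutation and adjusted over 7 genes.

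The members, the lists of related genes and markers, and the rules for naming genes (all members, the 3 smallest p per list between the time points, the 3 most correlated genes per member) were chosen with earlier results of these data known. For brevity the text prints the most correlated gene alone for 4 members. Alternatives were median centring, quantile normalization, total count scaling, voom, an intensity trend with a robust prior, a pseudocount of 10, a filter at the 0.25 quantile, the log2 total as a covariate, the replicate block and leaving out each sample. Symbols of all 7 members matched RefSeq names. Values of some genes that these rules name are not reported here.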

Additional observations from a re-analysis of the deposited data

How the results depend on the processing

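Of the 7 members, 0 passed against Sham in any alternative. Between TIA 3d and TIA 24h the count of members that passed was 1 with median centring (Slc2a5), where 144 of all 757 genes passed. It was 2 with total count scaling (Vegfa and Slc2a1), beside 344 genes, and 1 with an intensity trend and robust prior (Slc2a5), beside 177 genes. Leaving out 1 sample gave 0 to 2. The 2 were Slc2a5 and Vegfa without Sham replicate 1 (adjusted p = 0.0435 and 0.0391 in limma), where 226 genes passed. In the F test 1 member (Slc2a5) passed with an intensity trend and robust prior, beside 50 genes. Leaving out 1 sample gave 0 to 1 in that test. The 1 was Slc2a5 without Sham replicate 3 (adjusted p = 0.041 in limma), beside 126 genes. Of the 44 related genes, 4 passed between the time points, with 0 after quantile normalization, 11 with total count scaling, 2 in voom, 0 with the log2 total as a covariate and 0 to 5 when 1 sample was left out. Against Sham at TIA 3d, 0 to 2 of them passed when 1 sample was left out, the 2 without Sham replicate 1.

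Over all genes, the number that passed between the time points was 145. It was 144 after median centring, 7 after quantile normalization, 344 with total count scaling and 97 in voom. With the trend it was 177, with the pseudocount 147, with the low filter 141, with the replicate block 140 and with the covariate 0. When 1 sample was left out it was 0 to 226. In the F test it was 0, with 52 after median centring, 1 after quantile normalization, 181 with total count scaling and 50 with the trend. The F test gave 43 with the pseudocount, 40 with the low filter, 54 with the replicate block and 0 to 136 when 1 sample was left out. Against Sham at TIA 3d the number was 0, with 8 with the trend and 6 with the pseudocount. For that comparison it was 1 with the low filter, 1 with the replicate block and 0 to 84 when 1 sample was left out. The cause of these differences was not tested.

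The replicate numbers were not used to pair the samples in the fit of the deposited values. Deviations of same-numbered samples correlated at -0.24 to 0.27. Differently numbered samples were not set beside them, so that these values cannot show whether a pairing exists. With the replicate block, 0 members passed in any comparison and 4 related genes between the time points. Slc2a1 was below the low filter and has no value there. Counts of 3 to 20 for Hilpda and 4 to 14 for Slc2a1 limit what could be detected in these genes, and the background of a sample was not measured here.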
